A study of Mus musculus with 12 samples.

Results

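Alveolar macrophages from mice without Bach2 were set directly against alveolar macrophages from mice without Bach1. The comparison used 6 of the 12 arrays of the series, chosen by the genotype in the sample titles: 3 arrays labelled Bach2 KO and 3 labelled Bach1 KO, with 1 mouse per array. Wild-type arrays (WT, 3 mice) were used to show on which side of WT each knockout lay, and arrays of mice without both factors (DKO, 3 mice) entered the shared estimate of the spread. All 4 groups were female C57BL/6 mice aged 8 to 9 weeks, untreated as far as the labels say. Cells were taken by bronchoalveolar lavage, sorted by flow cytometry and hybridised as total RNA in 1 colour (Cy3) to Agilent mouse arrays. The labels do not give the sort gate, how the alleles were made or whether mice of different groups were littermates, so p-values measure the spread between these mice. A knockout that acts in every tissue and one confined to macrophages cannot be told apart from the labels.

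Bach1 and Bach2 are related transcriptional repressors that pair with small Maf proteins and bind Maf recognition elements, sites that overlap those of the AP-1 and NRF2 activators. Bach1 is widely expressed, binds heme and is released from DNA by it; heme oxygenase and genes of iron and glutathione metabolism are its best known targets. Bach2 is best known in lymphocytes, and mice without it accumulate surfactant lipid in the lung airspaces, where alveolar macrophages normally clear it. Because the partners bind the same kind of site, a direct comparison shows on which genes the loss of each has a different outcome.

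The promoters of 5 genes on which the results turn are shown first, since sites for these factors and for the MHC class II regulators are defined by sequence. Each is the 250 bases before a RefSeq start site (GRCm38.p6), 5′ to 3′ on the strand of the gene, with the motif in capitals. H2-Aa (chr17:34287824-34288073, minus strand) and H2-Eb1 (chr17:34305617-34305866, plus strand) encode MHC class II chains and went opposite ways in the knockouts, and their capitals mark the Y box, TGATTGG:
H2-Aa: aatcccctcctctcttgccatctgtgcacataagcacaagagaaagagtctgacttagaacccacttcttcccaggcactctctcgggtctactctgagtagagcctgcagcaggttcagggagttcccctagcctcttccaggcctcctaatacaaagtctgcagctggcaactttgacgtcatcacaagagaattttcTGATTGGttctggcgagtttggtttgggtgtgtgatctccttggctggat
H2-Eb1: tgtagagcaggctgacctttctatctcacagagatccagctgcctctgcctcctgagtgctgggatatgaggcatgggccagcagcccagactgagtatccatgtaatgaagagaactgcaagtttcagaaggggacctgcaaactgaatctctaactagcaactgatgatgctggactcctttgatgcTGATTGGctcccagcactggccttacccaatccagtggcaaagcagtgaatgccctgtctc
The Y box was searched on both strands and its first base lies at -50 in H2-Aa and -61 in H2-Eb1, counted back from the start site. It was found in 8 of the 13 MHC class II list genes that have a promoter in the table (57.1% of their 14 promoters). The Y box stood in 7.23% of all 32851 promoters and in 9.13% of those of all genes tested. Its share was smaller for genes higher in Bach2 KO (142 of 2077 promoters) than for genes lower in Bach2 KO (339 of 3171). H2-Oa, a gene of the list that was lower in Bach2 KO, also holds it, at -45. A match describes letters only and shows no binding.

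The next 3 promoters hold an AP-1 site, TGAGTCA on either strand, and belong to a gene that was higher in Bach2 KO, a gene that was lower in Bach2 KO and a gene that was higher than WT in both knockouts. They are Mmp12 (chr9:7347124-7347373, plus strand), Cidec (chr6:113434765-113435014, minus strand) and Tnfsf14 (chr17:57194182-57194431, minus strand):
Mmp12: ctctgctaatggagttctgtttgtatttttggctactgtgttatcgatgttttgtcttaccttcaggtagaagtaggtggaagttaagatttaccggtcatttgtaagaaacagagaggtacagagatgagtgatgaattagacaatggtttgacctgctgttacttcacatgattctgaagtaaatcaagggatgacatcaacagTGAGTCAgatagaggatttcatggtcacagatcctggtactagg
Cidec: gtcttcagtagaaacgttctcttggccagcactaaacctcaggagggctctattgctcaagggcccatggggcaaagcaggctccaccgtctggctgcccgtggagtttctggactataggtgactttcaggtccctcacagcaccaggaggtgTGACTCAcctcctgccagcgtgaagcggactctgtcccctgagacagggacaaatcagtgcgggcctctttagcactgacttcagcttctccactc
Tnfsf14: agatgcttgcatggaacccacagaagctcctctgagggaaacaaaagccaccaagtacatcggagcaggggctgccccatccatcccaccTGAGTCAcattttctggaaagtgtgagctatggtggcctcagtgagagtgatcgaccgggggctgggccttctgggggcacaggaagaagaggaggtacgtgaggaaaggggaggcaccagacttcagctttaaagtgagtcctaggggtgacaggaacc
Its first base lies at -44 in Mmp12, at -96 in Cidec (as TGACTCA, the other strand's letters) and at -160 in Tnfsf14; Mmp12 and Cidec each have a further listed promoter without it. This motif stood in 4.46% of all promoters, in 5.01% of those of genes higher in Bach2 KO and in 3.56% of those of genes lower in Bach2 KO. Among promoters of all genes tested the AP-1 site stood in 3.43%.

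Values are log2 signal minus the array's own 75th percentile, differences are log2 Bach2 KO minus Bach1 KO ± standard error, and group values are means ± SD with n = 3. On a log2 scale a difference of 1 is a doubling. The share of spots well above background ran from 45.2%, in Bach1 KO replicate 3, to 72.4%, in Bach2 KO replicate 3, and no spot was saturated. Array correlations were 0.946 to 0.964 within Bach1 KO, 0.967 to 0.985 within Bach2 KO and 0.815 to 0.894 between them. Slide 1 carried the 3 WT arrays, the 3 Bach1 KO arrays and Bach2 KO replicates 1 and 2. Bach2 KO replicate 3 came from slide 2, and slide 3, with a later scan day, carried DKO. The 4 arrays in the second row of slide 1 (Bach1 KO replicates 2 and 3, Bach2 KO replicates 1 and 2) allow the comparison within 1 slide row, and its values are given beside the main genes.

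The targeted genes were read as a check of the labels. The Bach1 probe read 2.40, 2.55 and 2.53 on the Bach1 KO arrays and 3.81, 4.12 and 3.88 on the Bach2 KO arrays. Every Bach1 KO array lay below every Bach2 KO array, with a difference of 1.44 ± 0.32 (limma over 55650 probes, adjusted p = 0.00993). Of the 2 Bach2 probes, 1 was never well above background. The other read -2.72, -2.51 and -3.47 in Bach1 KO and -5.29, -3.72 and -5.29 in Bach2 KO, with a difference of -1.87 ± 1.25 (adjusted p = 0.407), so the arrays did not settle the Bach2 label. Whether either probe reads the deleted sequence was not analysed here.

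The labelled cell type was checked against 35 genes of alveolar macrophage identity, of which 34 were well above background on all 3 Bach1 KO arrays and 35 on all 3 Bach2 KO arrays. Their summed signal, as multiples of each array's 75th percentile, was 2260 to 3670 in Bach1 KO and 1120 to 1520 in Bach2 KO. General macrophage and alveolar macrophage genes such as Itgax (-0.45 ± 0.26, adjusted p = 0.188), Adgre1 (-0.33 ± 0.19, adjusted p = 0.19) and Mrc1 (-0.12 ± 0.23, adjusted p = 0.712) did not pass the test (limma). Siglecf, the lectin used as a surface marker of these cells, read 5.16, 5.41 and 5.20 in Bach1 KO and -0.64, 0.51 and -1.66 in Bach2 KO. It was well above background on every array of both knockouts, yet 5.85 ± 0.47 lower in Bach2 KO on the log2 scale (57.8-fold, adjusted p = 5.4e-06).

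Among markers of other cells, the summed signal of 13 interstitial macrophage markers was 2.44 to 6.32 in Bach1 KO and 103 to 126 in Bach2 KO, with Cd163 at background throughout the 12 arrays. For 13 dendritic cell markers it was 62.5 to 100 and 152 to 164, with Xcr1 at background on all 6 arrays. The 10 T cell markers summed to 1.74 to 2.85 in Bach1 KO and 4.02 to 4.28 in Bach2 KO, with Cd247 and Themis at background throughout. The 9 B cell markers summed to 0.318 to 0.839 and 15.9 to 28, of which Blnk, an adaptor protein, read -2.75, -4.40 and -4.20 in Bach1 KO and 3.94, 4.77 and 4.13 in Bach2 KO. Monocyte and recruited macrophage genes summed to 359 to 541 and 311 to 410, and neutrophil markers to 79.9 to 130 and 52 to 68.6. The part that other cells had in any result below was not tested. In sorted bulk RNA, fewer cells of a type and less RNA per cell cannot be told apart.

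Bach2 KO and Bach1 KO macrophages differed at 8260 of 23576 genes or transcripts tested (35%, limma, adjusted p under 0.05), of which 3018 (12.8%) were higher and 5242 (22.2%) lower in Bach2 KO. The median difference over all genes was -0.24, and for 52.7% of genes the 3 arrays of one knockout did not overlap the 3 of the other. A share of 36.5% of the passed genes was higher in Bach2 KO, against 47.7% after quantile normalization, 63.8% with no scaling between arrays (where the median of all genes was 0.29) and 26.6% when a gene had to be well above background on all 6 arrays. For comparison, Bach1 KO differed from WT at 14 genes (0.0594%) and Bach2 KO from WT at 8953 (38%), and these comparisons share the WT arrays. Within the second row of slide 1 alone, 3450 genes passed, and all 8243 of the main calls that could be tested there kept their direction, while 40.1% of the main calls passed again. These arrays also made the main calls, so the kept direction is not an independent check.

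**Figure D1:**
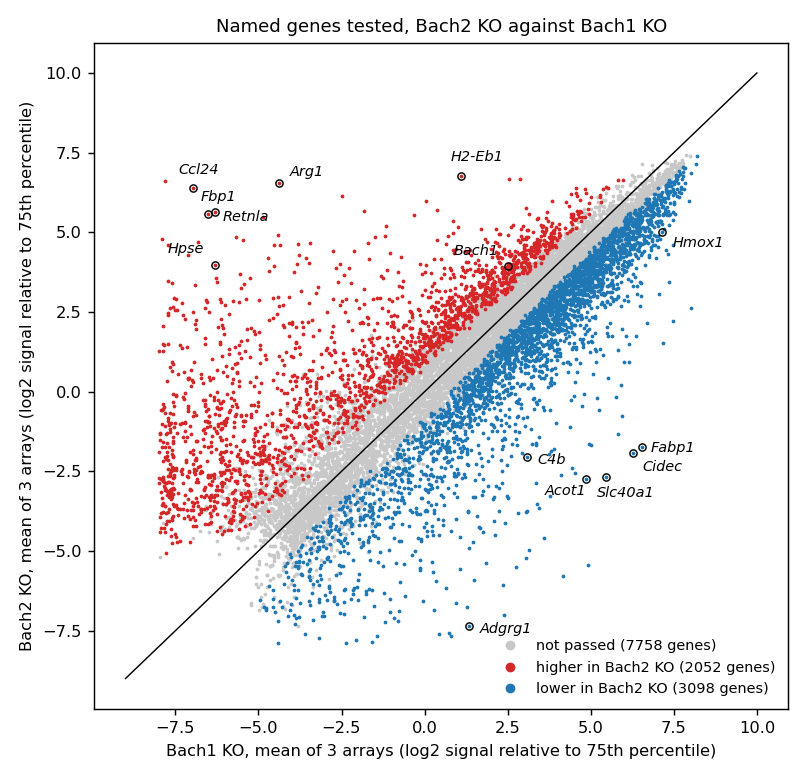
Mean log2 signal relative to the array's 75th percentile in Bach1 KO (horizontal axis) and Bach2 KO (vertical axis) for the 12908 named genes tested, 3 arrays each, with the line of equal values. The 2052 genes that passed higher in Bach2 KO (red) spread far to the upper left, where Fbp1, Ccl24, Retnla and Arg1 lie, and the 3098 that passed lower (blue) form a denser band below the line, with Fabp1, Cidec, Acot1 and Slc40a1 at its edge.

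Only a small set of genes lay on opposite sides of WT in the 2 knockouts. For 233 genes (0.988%) that passed the direct comparison, the WT arrays lay wholly between the arrays of the knockouts: 120 (0.509%) were highest in Bach2 KO and lowest in Bach1 KO, and 113 (0.479%) the reverse. Of the 233, only 8 also passed Bach1 KO against WT, so for most the place of Bach1 KO describes these arrays only. By the stricter rule that both knockouts pass against WT with opposite signs, 7 genes (0.0297%) qualified: Fbp1, H2-Aa, H2-Eb1, Cd74, Hpse, Btla and Armcx2. All 7 were lower than WT in Bach1 KO and higher than WT in Bach2 KO. No gene passed in both with the reverse order.

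Fbp1, a gluconeogenic fructose bisphosphatase, was furthest apart among these 7. It read -0.95, -0.55 and -0.07 in WT, -6.52, -6.13 and -6.26 in Bach1 KO, and 5.73, 6.11 and 5.05 in Bach2 KO. No Bach1 KO array had it well above background, while all WT and Bach2 KO arrays measured it and no groups overlapped. The bound was at least 2480-fold higher in Bach2 KO than in Bach1 KO (limma, adjusted p = 6.66e-09). Bounds here set the mean of the bright group against the lowest signal called well above background on each array of the dim group. In DKO, whose arrays cannot be told apart from their slide and scan day, Fbp1 was 1.61 ± 0.38, between Bach2 KO and WT.

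The MHC class II genes, whose products present antigen to CD4 T cells, include several genes that went opposite ways: 4 of the 18 tested members lay with WT wholly between, all with Bach2 KO highest, against 0.509% of all genes. H2-Aa, an alpha chain, read 3.18, 3.76 and 2.19 in WT, -2.36, -0.53 and -0.58 in Bach1 KO, and 4.86, 4.99 and 5.75 in Bach2 KO. H2-Eb1, a beta chain, read 5.29, 5.16 and 5.01 in WT, 0.37, 1.49 and 1.48 in Bach1 KO, and 6.88, 6.63 and 6.84 in Bach2 KO. Neither gene overlapped between any of these 3 groups, and both promoters shown above hold the Y box. Cd74, the invariant chain that escorts class II molecules, read 4.13, 4.91 and 3.45 in WT, -0.36, 1.34 and 0.10 in Bach1 KO, and 5.86, 6.03 and 5.17 in Bach2 KO. The direct differences were 6.36 ± 0.51 for H2-Aa (adjusted p = 5.65e-06), 5.67 ± 0.31 for H2-Eb1 (adjusted p = 4.26e-07) and 5.33 ± 0.49 for Cd74 (adjusted p = 1.45e-05).

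H2-Ab1, the partner beta chain of H2-Aa, followed the same order with a smaller rise. It read 6.13, 6.31 and 5.99 in WT, 2.46, 3.02 and 3.16 in Bach1 KO and 6.55, 6.78 and 6.65 in Bach2 KO. The Bach2 KO arrays lay just above WT (0.51 ± 0.22, adjusted p = 0.0889, not passed) and well above Bach1 KO (3.78 ± 0.22, adjusted p = 5.7e-07). H2-Eb2, a further beta chain gene, was measured on Bach2 KO arrays only among the 3 groups, at 0.97, 1.96 and 1.49, and was at least 142-fold higher there than in Bach1 KO (adjusted p = 1.33e-06).

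In the whole list of 18 tested MHC class II and antigen presentation genes, 7 were higher in Bach2 KO, 4 were lower and 7 did not pass, with a median of 1.42, beside 12.8% higher and 22.2% lower over all genes. After quantile normalization 10 were higher and 4 lower, and without scaling 10 and 1. The other members that rose were H2-Ob, part of an inhibitor of peptide loading (3.14 ± 0.44, adjusted p = 0.000312), and Cd40, a co-stimulatory receptor (8.95 ± 1.62, adjusted p = 0.00169). Cd40 varied among the Bach1 KO arrays, at -8.41, -3.63 and -6.37, and was well above background on 1 of them. The 4 that fell were H2-DMa (-1.56 ± 0.31), a subunit of the peptide loading factor, Rfxank (-1.50 ± 0.37), part of the complex that binds class II promoters, H2-Oa (-1.28 ± 0.42) and Cd80 (-2.10 ± 0.26), another co-stimulatory ligand. A second Cd80 probe moved the other way (2.36, adjusted p = 0.0496), so the direction of Cd80 rests on the brighter probe. Ciita, the class II master regulator, was -1.75 ± 1.14 in Bach1 KO and -0.29 ± 0.82 in Bach2 KO, a difference of 1.46 ± 0.61 that did not pass (adjusted p = 0.083).

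Of 12 tested dendritic cell markers, 8 were higher in Bach2 KO, none was lower (all genes, 12.8% and 22.2%) and the median was 2.97. On all 3 arrays, 12 were well above background in Bach2 KO and 8 in Bach1 KO, so some entered the test through Bach2 KO alone. Flt3, a growth factor receptor, read -4.38, -4.12 and -4.0 in Bach1 KO and 0.99, 1.34 and 1.45 in Bach2 KO. Ccr7, the lymph node homing receptor, read -4.58, -3.22 and -5.39 and then 4.73, 4.88 and 5.16. Zbtb46, a dendritic cell transcription factor, differed by -0.34 and did not pass. The summed dendritic cell markers were 81 to 101 in WT and 62.5 to 100 in Bach1 KO, ranges that overlap. That sum rests mostly on Siglech (means 5.76 and 5.64), so it says little about the dimmer markers. Irf4 (-0.35 and -2.44), Ccr7 (-2.29 and -4.40) and Batf3 (2.78 and 1.28) had lower means in Bach1 KO than in WT. Clec9a (-3.71 and -2.22) and Cd209a (-7.15 and -5.60) had higher means there, and the median over the 12 was -0.11. The part of dendritic cells in the class II result was not tested.

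Hpse, the heparan sulfate cleaving enzyme heparanase, read -1.76, -1.43 and -0.94 in WT, -7.57, -4.87 and -6.53 in Bach1 KO and 3.92, 4.36 and 3.64 in Bach2 KO. Only 1 Bach1 KO array measured it, and the direct difference was 10.30 ± 0.55 (adjusted p = 3.26e-07). Btla, an inhibitory receptor of the immunoglobulin family, read -3.69, -2.59 and -2.19 in WT, -8.50, -6.49 and -6.42 in Bach1 KO and 0.41, 0.09 and 0.73 in Bach2 KO. None of the Bach1 KO arrays had it well above background, which gives at least 67.8-fold more in Bach2 KO. Armcx2, an armadillo repeat gene of the X chromosome, was likewise dim on all Bach1 KO arrays, and its 1.77, 1.24 and 1.44 in Bach2 KO gave at least 143-fold.

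**Figure D2:**
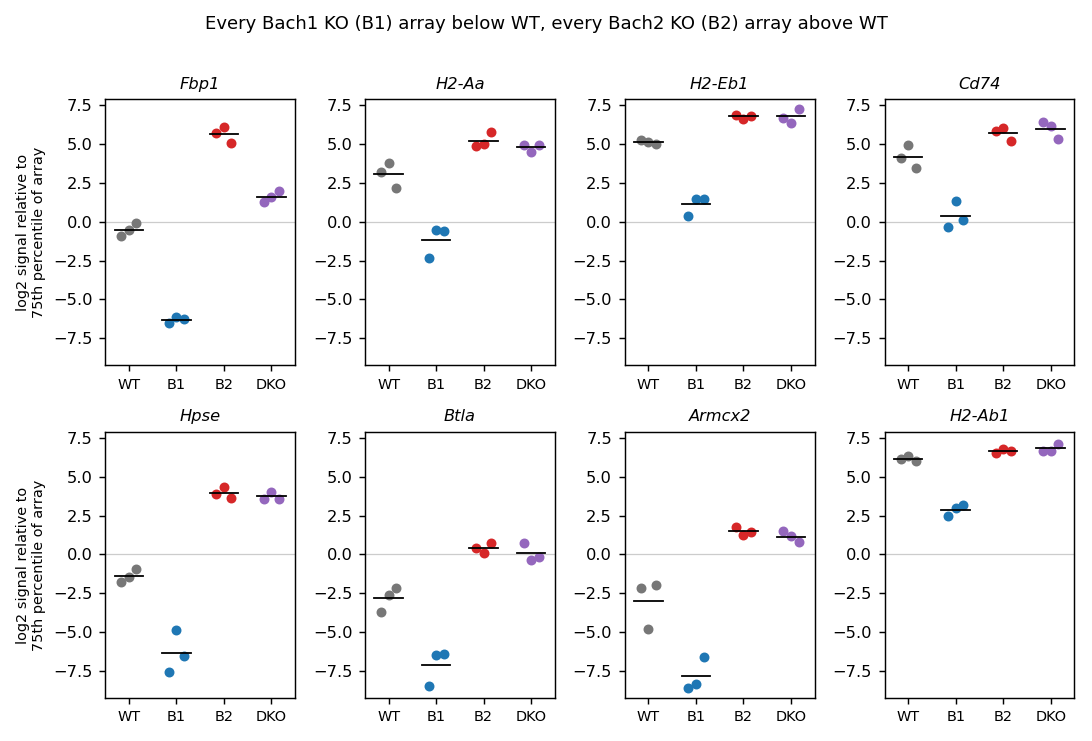
Log2 signal relative to the 75th percentile on each array (points) and group mean (line) for the 7 genes that passed against WT in both knockouts with opposite signs, and for H2-Ab1, in WT, Bach1 KO (B1), Bach2 KO (B2) and DKO. For each gene all 3 Bach1 KO arrays lie below the 3 WT arrays and all 3 Bach2 KO arrays lie above them; Fbp1 falls lowest relative to WT in Bach1 KO.

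Within the second row of slide 1 the direct differences of these 7 genes were 12.12 for Fbp1, 5.48 for H2-Aa, 5.27 for H2-Eb1, 5.23 for Cd74, 9.84 for Hpse, 6.70 for Btla and 8.97 for Armcx2, and all passed. Their fall in Bach1 KO against WT was less firm. Fbp1, H2-Eb1 and Hpse passed with opposite signs whichever of the 9 arrays of WT and the knockouts was left out, and within slide 1 alone only Fbp1 and H2-Eb1 did so. H2-Aa no longer passed in both when WT replicate 1 was left out, and Cd74 when Bach1 KO replicate 1 or 3, Bach2 KO replicate 1 or 2, or WT replicate 1 or 3 was. Btla and Armcx2 were lost without Bach1 KO replicate 1 or any Bach2 KO array, and Armcx2 also without WT replicate 1, and both without WT replicate 3.

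Of the 120 genes highest in Bach2 KO and lowest in Bach1 KO, 91 are named and 82 also passed Bach2 KO against WT. The direct difference had a median of 2.99 and ran from 0.59 to 11.93. Eif4e3, a cap binding protein, read -2.03, -0.87 and -2.10 in WT, -5.08, -3.49 and -5.47 in Bach1 KO and 2.05, 2.46 and 2.28 in Bach2 KO (6.94 ± 0.52, adjusted p = 3.11e-06). Adgre5, the adhesion receptor CD97, read 1.13, 0.97 and 0.95 in WT, 0.25, -0.72 and -3.14 in Bach1 KO and 4.91, 4.85 and 4.85 in Bach2 KO. Most of the distance of Adgre5 from WT lay on the Bach2 KO side (3.85 ± 0.66, adjusted p = 0.00117), and its fall in Bach1 KO did not pass (-2.22 ± 0.66, adjusted p = 0.445).

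The same order held for Msi2, an RNA binding protein (6.35 ± 0.53), Qpct, glutaminyl cyclase (5.60 ± 0.66), Ndrg1, a stress response gene (4.60 ± 0.52), and Hivep2, a zinc finger factor (4.55 ± 0.62). Pkdcc, a secreted kinase (5.12 ± 1.13), was widest in Bach1 KO, where replicate 3 read -6.69 and the others -1.14 and -1.73. Tns3, a focal adhesion protein, was 8.94 ± 0.81 by its brightest probe, while another probe that was bright on all 6 arrays gave 0.74 (adjusted p = 0.168). Among transcription factors of the AP-1 family, Batf3 lay in this set, at 3.01, 2.40 and 2.92 in WT, 0.55, 1.15 and 2.14 in Bach1 KO and 4.30, 4.27 and 4.57 in Bach2 KO. None of the genes named in this paragraph, nor Eif4e3 and Adgre5, passed Bach1 KO against WT. In limma the adjusted p ran from 0.0902 (Eif4e3) to 0.751 (Pkdcc).

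The 113 genes in the reverse order, highest in Bach1 KO and lowest in Bach2 KO, had a median direct difference of -2.09 and ran from -7.60 to -0.62. Of these, 65 are named and 88 also passed Bach2 KO against WT. Slc40a1, ferroportin, the only known cellular iron exporter, was furthest apart. It read 2.16, 3.13 and 3.33 in WT, 4.97, 4.76 and 4.83 in Bach1 KO, and -1.68, -2.37 and -4.21 in Bach2 KO. The Bach1 KO arrays were tightly grouped above WT (1.98 ± 0.54, adjusted p = 0.351, not passed) and the Bach2 KO arrays far below it (-5.62 ± 0.54, adjusted p = 2.01e-05). The direct difference of -7.60 ± 0.54 (195-fold, adjusted p = 2.19e-06) was -6.82 within the second row of slide 1.

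C4b, a complement component, read -0.35, -1.78 and 1.23 in WT, 3.23, 3.04 and 2.98 in Bach1 KO and -1.92, -2.19 and -2.03 in Bach2 KO. WT was the widest group for C4b, and the direct difference was -5.13 ± 0.57 (adjusted p = 6.28e-05). Penk, the precursor of enkephalin peptides, read 2.48, 2.81 and 3.47 in WT, 3.85, 4.12 and 4.34 in Bach1 KO and -2.92, -2.25 and -2.64 in Bach2 KO. Cd1d1, which presents lipid antigens, followed with a smaller step on each side of WT: 5.35, 4.62 and 5.18 in WT, 6.36, 5.73 and 6.30 in Bach1 KO and 4.13, 3.89 and 3.94 in Bach2 KO (-2.15 ± 0.27, adjusted p = 0.000159). Sult2b1, a cholesterol sulfotransferase (-4.06 ± 0.40), Syt8, a synaptotagmin (-4.74 ± 0.50), Dysf, a membrane repair protein (-3.76 ± 0.57), and the histone gene H2bc3 (-2.74 ± 0.45) completed the named set. No gene of this named set passed Bach1 KO against WT. In limma the adjusted p ran from 0.0902 (C4b) to 0.941 (Dysf).

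Loss of either factor moved 3 genes the same way from WT, with both knockouts passing (0.0127%). Tnfsf14, the cytokine LIGHT, read -0.74, -1.14 and -0.30 in WT, 2.76, 2.03 and 2.64 in Bach1 KO and 2.30, 2.08 and 2.77 in Bach2 KO. The 2 knockouts overlapped, and their difference was -0.09 ± 0.35 (adjusted p = 0.854). Plpp3, a lipid phosphate phosphatase, read 1.04, 1.59 and -0.26 in WT, 4.11, 4.0 and 4.22 in Bach1 KO and 4.42, 5.20 and 4.49 in Bach2 KO, and its difference of 0.59 ± 0.41 did not pass (adjusted p = 0.283). Klk8, a serine protease, fell in both but further without Bach2: it read 4.47, 3.66 and 4.40 in WT, 1.33, 1.86 and 1.18 in Bach1 KO and -3.25, -3.34 and -3.36 in Bach2 KO. The direct difference of Klk8 was -4.77 ± 0.36 (adjusted p = 3.94e-06).

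**Figure D3:**
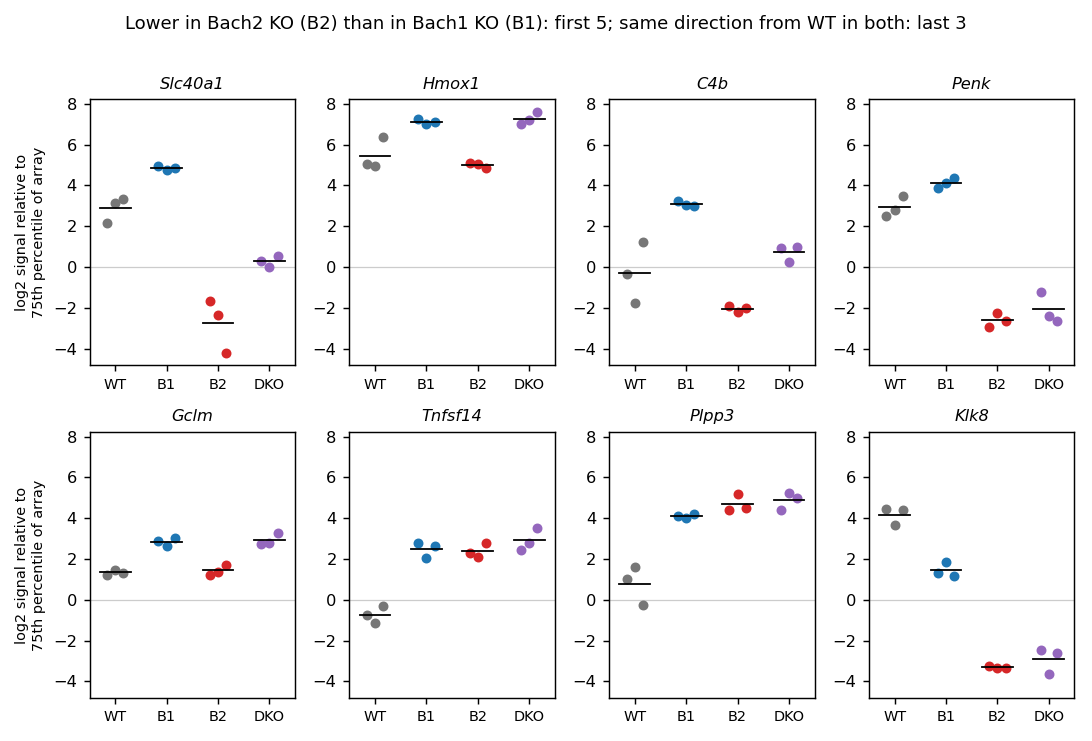
Log2 signal relative to the 75th percentile on each array (points) and group mean (line) in WT, Bach1 KO (B1), Bach2 KO (B2) and DKO for 5 genes that passed lower in Bach2 KO than in Bach1 KO (Slc40a1, Hmox1, C4b, Penk, Gclm) and 3 genes that passed the same way from WT in both (Tnfsf14, Plpp3, Klk8). Slc40a1, C4b and Penk lie above WT in Bach1 KO and below it in Bach2 KO, Hmox1 and Gclm lie above WT in Bach1 KO and overlap WT in Bach2 KO, and Klk8 steps down from WT to Bach1 KO to Bach2 KO.

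Among named genes that 2 or more arrays of each knockout measured above background, and whose arrays did not overlap, none of the 12 furthest apart in each direction passed for Bach1 KO against WT. Hpse, which 1 Bach1 KO array measured, lies outside that set. Arg1, the enzyme arginase and a marker of alternative activation, read -8.42, -3.57 and -1.19 in Bach1 KO and 6.35, 6.40 and 6.87 in Bach2 KO (10.94 ± 1.58, adjusted p = 0.000381). Its spread among Bach1 KO arrays was wide, and that among Bach2 KO arrays narrow. Mmp12, macrophage elastase, read -4.30, -4.66 and -5.21 and then 3.49, 4.16 and 4.88 (8.90 ± 0.51). Pla2g2d, a secreted phospholipase, read -4.86, -4.66 and -6.27 and then 3.71, 3.6 and 3.42, and its DKO level was -1.80 ± 0.18. Bex1, Il4i1, an amino acid oxidase, Kcnn4, a calcium activated potassium channel, Ccl2, a monocyte chemokine, Lat2, an adaptor, Papss2, a sulfate donor synthase, and Adam8, a membrane protease, were higher by 8.43 to 10.51.

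Beside Fbp1, genes at background on all 3 Bach1 KO arrays but bright in Bach2 KO included Rbp4, the plasma retinol carrier, at least 5000-fold higher, Ccl24, an eosinophil chemokine, at least 4290-fold, Rai14, an actin binding protein, at least 1400-fold, and Ccl7, a monocyte chemokine, at least 1250-fold. Of the 8260 passed genes, 430 were dim on all Bach1 KO arrays and 84 on all Bach2 KO arrays. Such genes entered the test only because all 3 arrays of the other knockout were bright. The share of spots well above background also differed between arrays, from 45.2% (Bach1 KO replicate 3) to 72.4% (Bach2 KO replicate 3). In the other direction Adgrg1, an adhesion receptor with 2 AP-1 sites in 1 of its listed promoters and none in the other, was at least 123-fold lower in Bach2 KO, followed by Hspa12a at 119-fold, Tc2n at 83.8-fold, Sobp at 79.9-fold and the lipase family gene Pnpla5 at 65.4-fold as lower bounds.

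Several genes far lower in Bach2 KO handle lipid. Fabp1, a fatty acid binding protein, read 6.56, 5.87 and 7.15 in Bach1 KO and -0.93, -1.46 and -2.81 in Bach2 KO (-8.26 ± 0.62, adjusted p = 3.53e-06). Cidec, a lipid droplet protein, read 6.41, 5.83 and 6.60 and then -1.20, -1.52 and -3.05 (-8.20 ± 0.66). Acot1, an acyl-CoA thioesterase, read 5.56, 5.04 and 5.80 and then -2.42, -2.48 and -3.17 (-8.16 ± 0.32), and Apoc1, an apolipoprotein, differed by -8.13 ± 0.47. In Bach1 KO none of these 4 passed against WT, with differences between -0.63 and 0.06. Grb7, an adaptor, Gal, the neuropeptide galanin, Lipf, a lipase, Slc6a4, the serotonin transporter, Adam22 and Bpifa1, an airway secretory protein, differed by -8.19 to -6.90. Patj, a polarity protein, differed by -7.09 ± 0.38 by its brightest probe and by -0.42 (adjusted p = 0.576) by another probe that was bright on all 6 arrays.

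In the list of 30 tested lipid handling and PPARgamma target genes, 13 were lower in Bach2 KO and 2 were higher, against 22.2% and 12.8% of all genes, with a median of -0.80. Among the lower members, Dgat2, the last enzyme of triglyceride synthesis, read 4.91, 4.82 and 5.04 in Bach1 KO and 1.67, 1.08 and 1.94 in Bach2 KO. Pparg itself, the nuclear receptor that maintains these cells, was lower by 0.85 ± 0.22 (adjusted p = 0.0133). The higher pair was Cd36, a fatty acid and lipoprotein receptor (1.95 ± 0.22, adjusted p = 6.61e-05), and Ppargc1b, a coactivator (1.78). Cholesterol efflux and apolipoprotein genes went both ways, 8 lower and 5 higher of 17 (all genes, 22.2% and 12.8%), and the sign of their median depended on the scaling (-0.43, and 0.10 without scaling). Scarb1, a lipoprotein receptor (-2.96 ± 0.32), and Mylip, which degrades that of LDL (-2.28 ± 0.36), were lower, and Ch25h, cholesterol hydroxylase, was higher (2.15 ± 0.29).

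Of the 35 alveolar macrophage identity genes, 19 were lower in Bach2 KO and 3 were higher, beside 22.2% and 12.8% of all genes, with a median of -0.85. After quantile normalization 13 were lower and 5 higher, with a median of -0.19. The lower ones included Il18, a cytokine of the interleukin family, at 6.07, 5.41 and 6.23 in Bach1 KO and 0.08, 0.53 and 0.05 in Bach2 KO, and Krt79, a keratin of resident alveolar macrophages, at 7.62, 7.0 and 7.80 and then 2.62, 2.22 and 1.86. Marco, a scavenger receptor, read 8.07, 7.55 and 8.44 and then 3.67, 2.75 and 1.44. Car2, a carbonic anhydrase, went the other way (7.21 ± 0.42, adjusted p = 5.46e-07). These genes changed beside the interstitial macrophage markers. Of the 10 tested, 9 were higher in Bach2 KO with a median of 5.46 (5.0 with 2 dim members set at their bounds). All 10 were well above background on all 3 Bach2 KO arrays, but only 4 were so in Bach1 KO. The others entered the test through Bach2 KO, so the filter itself favours this count and median. The part of interstitial macrophages in this result was not tested.

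Interstitial macrophage and complement genes overlap. C1qb, a subunit of the first complement component, read -2.69, -2.47 and -2.89 in Bach1 KO and 3.64, 3.34 and 4.62 in Bach2 KO, and C1qc was at least 1000-fold higher. C5ar1, the receptor of the C5a fragment, read 4.78, 3.97 and 4.55 in Bach1 KO and -2.21, -2.91 and -2.11 in Bach2 KO. Itgam, a chain of complement receptor 3, was higher (4.18 ± 0.41). In all, 4 of 16 complement genes were higher and 7 lower (all genes, 12.8% and 22.2%), and the sign of the median (-0.07) changed with the scaling.

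The Bach, CNC, small Maf and AP-1 factors themselves were split, with 8 of 21 higher in Bach2 KO, 4 lower (all genes, 12.8% and 22.2%) and a median of 0.07 (-0.09 with arrays scaled to their median). Atf3, a stress response factor (2.81 ± 0.36), and Mafk, a small Maf partner of both Bach proteins (1.29 ± 0.27, adjusted p = 0.0043), were higher. Jund (-2.27 ± 0.58, adjusted p = 0.0115), Nfe2 (-1.50 ± 0.36, adjusted p = 0.00842) and Batf (-1.26 ± 0.31, adjusted p = 0.00917) were lower. Within the second row of slide 1, Mafk (0.99, adjusted p = 0.11), Nfe2 (-1.04, adjusted p = 0.0764) and Batf (-1.13, adjusted p = 0.103) did not pass. On slide 1 alone Nfe2 (adjusted p = 0.0631) and Batf (adjusted p = 0.0576) did not pass either, and Jund did not pass with slide row as a term within slide 1. Nfe2l2, which encodes the NRF2 activator, differed by 0.07 ± 0.21 and did not pass.

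Heme and iron genes were the known Bach1 targets of interest. Hmox1, heme oxygenase 1, read 5.04, 4.95 and 6.37 in WT, 7.28, 7.0 and 7.12 in Bach1 KO and 5.11, 5.05 and 4.83 in Bach2 KO. All 3 Bach1 KO arrays lay above WT and Bach2 KO, and the latter overlapped WT. The direct difference passed (-2.13 ± 0.33, adjusted p = 0.00061) and Bach1 KO against WT did not (1.68 ± 0.33, adjusted p = 0.142). Other members showed larger direct differences: Tfrc, the transferrin receptor, read -0.42, -1.36 and -0.34 in Bach1 KO and 4.15, 4.04 and 4.51 in Bach2 KO, and Flvcr2 read 5.79, 5.41 and 6.22 and then 2.11, 1.74 and 0.10. Its paralog Flvcr1, a heme exporter, was higher (2.65 ± 0.31), as were the metal transporters Slc11a1 (4.10 ± 0.50) and Slc11a2 (1.92 ± 0.35). Trf, transferrin, was lower (-1.96 ± 0.29). The ferritin chains Fth1 (-0.58 ± 0.25, adjusted p = 0.0844) and Ftl1 (-0.51 ± 0.30, adjusted p = 0.201) did not pass. In all, 8 of 24 were higher and 6 lower (all genes, 12.8% and 22.2%), with a median of -0.46 that turned to 0.18 after quantile normalization.

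Glutathione, thioredoxin and NADPH genes gave 11 lower and 5 higher of 31 tested in Bach2 KO (all genes, 22.2% and 12.8%), with a median of -0.66 (-0.12 without scaling, where 3 were lower). Gclm, the modifier subunit of the rate-limiting glutathione synthesis enzyme, had the pattern of Hmox1: 1.23, 1.47 and 1.33 in WT, 2.88, 2.65 and 3.02 in Bach1 KO, and 1.22, 1.36 and 1.72 in Bach2 KO. Its direct difference was -1.41 ± 0.24 (adjusted p = 0.00101; -0.88 and adjusted p = 0.0574 without scaling). Slc7a11, the cystine importer, was higher in Bach2 KO, at 3.06, 3.13 and 3.21 against 0.34, -0.33 and 0.60, and Gstm2 differed by 4.28 ± 0.58. Gstp1 (-2.14 ± 0.30), Gstm1 (-2.08 ± 0.49), Sod1 (-1.75 ± 0.34), G6pdx (-1.18 ± 0.23) and Pgd (-0.86 ± 0.22) were lower, the last pair not passing without scaling. Within the second row of slide 1, Sod1 (-1.38, adjusted p = 0.0782) and Pgd (-0.86, adjusted p = 0.131) did not pass.

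Of 26 chemokines and receptors, 16 were higher and 4 lower, beside 12.8% and 22.2% of all genes, with a median of 2.11. Beside Ccl24, Ccl7, Ccl2 and Ccr7 above, Ccl8 read -5.27, -4.68 and -5.42 in Bach1 KO and 1.86, 2.65 and 1.21 in Bach2 KO. The 4 that fell were Cxcl14 (-3.73), Cxcr2 (-3.02), and the interferon induced Cxcl9 (-2.09) and Cxcl10 (-2.0). Of 25 alternative activation genes, 11 were higher and 3 lower (all genes, 12.8% and 22.2%), with a median of 1.08, and without scaling 15 were higher and 1 lower. Retnla, a secreted product of alternative activation, read -4.96, -8.16 and -6.42 and then 5.56, 5.91 and 5.25, and Socs1, a feedback inhibitor of cytokine signalling, differed by 5.39 ± 0.33. Other members of the list such as Mrc1 (-0.12) and Chil3 (-0.44) did not pass.

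Growth factor genes gave 10 higher and 3 lower of 23 (all genes, 12.8% and 22.2%), with a median of 0.75. Hbegf, an epidermal growth factor receptor ligand, read -5.78, -6.47 and -6.57 in Bach1 KO and 3.46, 3.82 and 3.45 in Bach2 KO. Pdgfa (9.26 ± 0.62) and Csf1, the macrophage growth factor (7.50 ± 0.77), were higher too, and Vegfa was at least 79-fold higher. Matrix remodelling genes gave 13 higher and 3 lower of 24 (all genes, 12.8% and 22.2%), with a median of 1.46. Thbs1, a matricellular protein, was at least 267-fold higher, and the lower ones included Adam22 (-7.22) and Mmp8 (-4.96).

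Inflammatory cytokine and NF-kB genes gave 11 higher and 4 lower of 25 (all genes, 12.8% and 22.2%), with a median of 0.79. Traf1 (6.05 ± 0.64) and Birc3 (4.02 ± 0.51), signalling adaptors of TNF receptors, and Il1a (3.09 ± 0.51) were higher, whereas Il18 fell as above. Co-signalling genes gave 6 higher and 4 lower of 17, beside 12.8% and 22.2% of all genes, with a median of -0.09. This became 6 and 2 after quantile normalization (median 0.55) and 6 and 1 without scaling. Pdcd1lg2, a ligand of the inhibitory receptor PD-1, read 1.76, 1.70 and 1.61 in Bach1 KO and 4.90, 5.36 and 5.07 in Bach2 KO, and the TNF family ligand Tnfsf9 differed by 3.27 ± 0.44. Tnfsf4 was at least 5.17-fold higher, and Icosl was among the lower ones (-3.71 ± 0.78). The T cell receptor chains Cd3g (at least 9.62-fold) and Cd3d (at least 3.89-fold) were also higher in Bach2 KO, at levels of -2.22 or lower on each array, and their part in the co-signalling values was not tested.

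Scavenger and uptake genes gave 8 higher and 7 lower of 21, beside 12.8% and 22.2% of all genes, but 8 and 4 after quantile normalization and 9 and 3 without scaling. Itgb3, an integrin chain, read -4.48, -4.97 and -3.79 in Bach1 KO and 3.22, 2.78 and 2.95 in Bach2 KO, and Mfge8, a bridge to apoptotic cells, differed by 4.11 ± 0.42. Axl, a receptor for apoptotic cells, was lower (-2.02 ± 0.20). Among monocyte genes, 7 of 20 were higher and 8 lower (all genes, 12.8% and 22.2%): F13a1, a coagulation factor subunit, read -5.84, -5.64 and -6.63 and then 1.75, 2.05 and 1.62, and Cd300e was lower (-8.25 ± 0.58).

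Of 50 cell cycle genes, 42 were lower against 22.2% of all genes and 2 were higher, with a median of -1.71 (25 lower without scaling, median -1.18). Tk1, thymidine kinase, read 5.51, 4.96 and 5.39 in Bach1 KO and 1.56, 1.23 and 1.27 in Bach2 KO. Ccnd3, a D cyclin, read 5.87, 5.16 and 5.47 and then 2.36, 2.03 and 1.70, and the replication genes Mcm6 (-2.27 ± 0.22) and Prim1 (-2.16 ± 0.21) fell too. The 2 that rose were Ccnd1 (4.07) and the inhibitor Cdkn1a (0.85).

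Oxidative phosphorylation genes gave 19 lower and none higher of 34 (all genes, 22.2% and 12.8%), with a median of -0.83. Ndufa4, a respiratory chain subunit, had the lowest difference of the list (-2.23), at 6.64, 5.77 and 6.82 in Bach1 KO and 4.57, 4.74 and 3.22 in Bach2 KO. It did not pass within the second row of slide 1 (-1.64, adjusted p = 0.0508). The counts depended on the scaling: after quantile normalization 8 were lower and 5 higher, with a median of -0.16. Glycolysis and pentose phosphate genes gave 7 higher and 8 lower of 27 (all genes, 12.8% and 22.2%), with a median of -0.32. After quantile normalization 12 were higher and 4 lower (median 0.40), and without scaling 11 and 2. Hk3, a hexokinase (2.58 ± 0.31), and Pfkl (1.77 ± 0.26) were higher, as was Fbp1, and Pdk1, which restrains pyruvate oxidation, was lower (-1.92 ± 0.27).

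The lists below had 25% to 41.4% of their members called, beside 35% of all genes. ATF4 and unfolded protein response genes gave 9 higher and 3 lower of 29 (all genes, 12.8% and 22.2%), with a median of 0.30. After quantile normalization 15 were higher and 1 lower, and without scaling 12 and 0. Higher members were Asns, asparagine synthetase (3.17 ± 0.35), Mthfd2 (3.29 ± 0.38) and Ppp1r15a (2.86 ± 0.32). Of 27 interferon-stimulated genes 6 were higher and 3 lower, or 33.3% called beside 35% of all genes, and without scaling 7 and 0. Usp18 (3.83 ± 0.63), Gbp3 (2.81 ± 0.28) and Oasl2 (2.64 ± 0.53) were higher and Ifi35 was lower (-1.61 ± 0.39). Ifi35 did not pass without scaling, with slide row as a term within slide 1, or without Bach1 KO replicate 3 and Bach2 KO replicate 1 together, and Oasl2 did not pass with the slide row term. Of 24 sterol synthesis genes, 2 were higher and 6 were lower (33.3% called beside 35%), which turned to 5 higher and 2 lower after quantile normalization and also without scaling. Serine proteases and cathepsins gave 3 higher (Prss46, St14 and Ctsg) and 2 lower (Klk8 and Ctsh) of 20, or 25% called beside 35% of all genes. After quantile normalization 8 were higher and 1 lower. For sterol synthesis, interferon-stimulated and protease genes the sign of the median changed with the scaling.

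**Figure D4:**
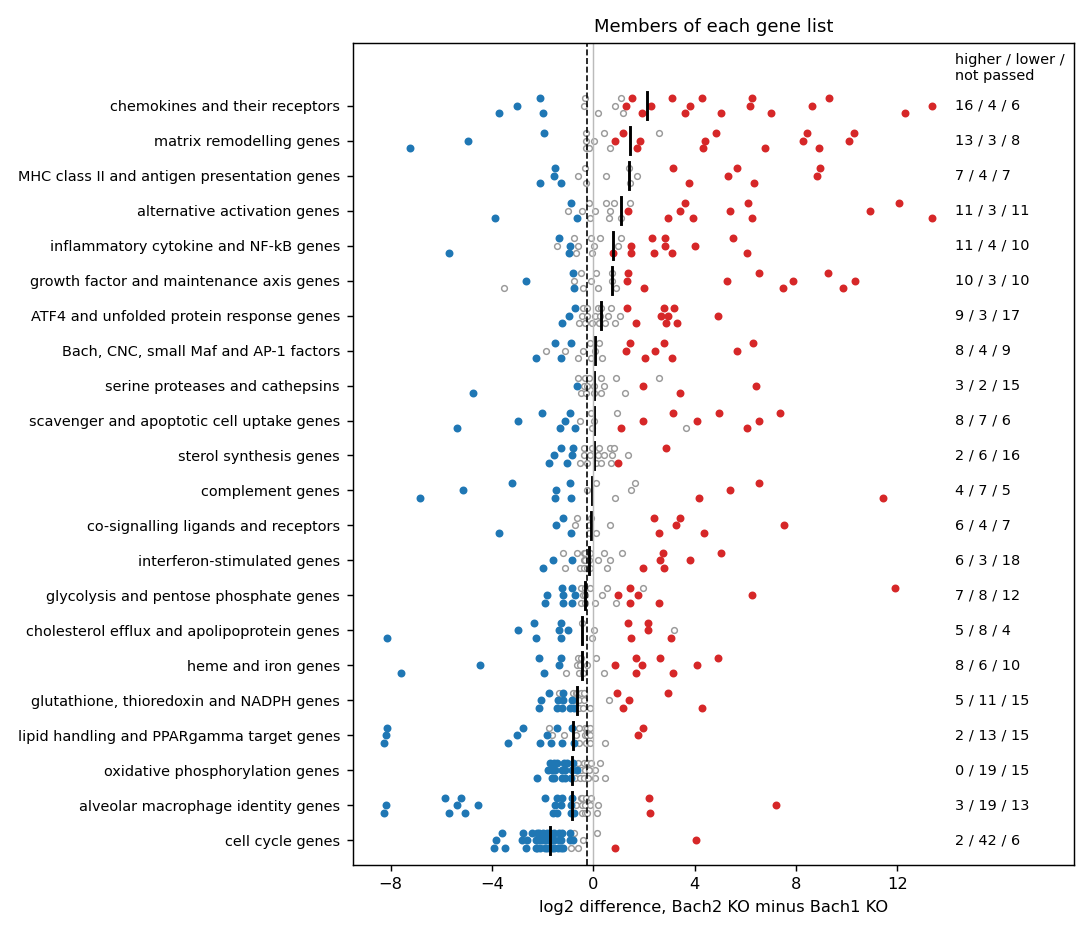
Log2 difference Bach2 KO minus Bach1 KO for each tested member (points) of 22 gene lists, ordered by median (black bar), with members that passed higher in red, lower in blue and those that did not pass open; the dashed line marks the median of all genes, -0.24. Chemokine, matrix remodelling and MHC class II lists have the highest medians (2.11, 1.46 and 1.42) and the cell cycle list the lowest (-1.71).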

How the data were processed

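Total RNA of sorted alveolar macrophages was hybridised to 12 single-colour arrays, 1 per mouse and 3 per genotype. The authors deposited scanner tables of spot intensity, made with Agilent Feature Extraction 10.7.3.1 per the file headers (9.1 per the submitters' processing notes), with background handled within each array and no normalization between arrays. A deposited table of log2 values, centred per probe over the 12 arrays with other steps not stated, served as an alternative.

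From the processed signal, log2 was taken and each array's 75th percentile over non-control spots subtracted. Probes well above background on all 3 arrays of Bach1 KO or Bach2 KO were kept. The brightest passing probe stood for a gene, which left 23576 genes or transcripts, 12908 of them named. Gene names were RefSeq symbols assigned through each probe's accession, which left 29268 of the 55681 probes unnamed. limma 3.58.1 (lmFit, eBayes with trend; R 4.3.3) fitted a mean for each genotype to the 12 arrays together (residual degrees of freedom, 8), with Benjamini-Hochberg adjustment over everything tested. The threshold was an adjusted p of 0.05. The steps were tested on simulated data. The number of arrays limits the precision.

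Named genes are the 12 furthest apart per direction, the 5 largest bounds per direction, the 8 per direction that lay furthest on opposite sides of WT, every named gene that passed for Bach1 KO against WT, and the 4 members with the smallest adjusted p per list, or 8 for 4 lists. Others were chosen after their values were seen, namely Adgre1, Ccnd1, Cd36, Cdkn1a, Chil3, Ciita, Clec9a, Ctsh, Cxcl9, Cxcl10, Cxcl14, Fth1, Ftl1, H2-DMa, H2-Oa, Icosl, Irf4, Itgax, Mmp8, Mrc1, Nfe2l2, Pparg, Ppargc1b, Rfxank, Siglech and Zbtb46, besides markers at background. A few genes the rule selects are not reported here. The members and lists were chosen with earlier results of these data known. Alternatives covered scaling, background correction, filters, probes per gene, the fit, slides and left-out arrays.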

Additional observations from a re-analysis of the deposited data

Results flagged for a closer look

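For 7 genes the effects of the 2 knockouts against WT went opposite ways and the direct test of the difference passed (limma, adjusted p under 0.05). In each, every Bach1 KO array lay below and every Bach2 KO array above the 3 WT arrays. The log2 difference Bach2 KO minus Bach1 KO was 11.93 for Fbp1, 10.30 for Hpse, 9.34 for Armcx2, 7.54 for Btla, 6.36 for H2-Aa, 5.67 for H2-Eb1 and 5.33 for Cd74. The values for Fbp1, Armcx2 and Btla depend on the background level, since no Bach1 KO array measured them. That of Hpse depends on it in part, since only 1 Bach1 KO array measured it.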

How the results depend on the processing

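For Bach2 KO against Bach1 KO, the 8260 genes became 4500 on slide 1 alone, 4486 with slide as a fixed term without DKO, 3450 in the second row of slide 1, 4345 at an adjusted p under 0.01, and 5625 to 9145 with 1 array left out. Chosen after seeing the data, a slide row term within slide 1 gave 2496, and leaving out Bach1 KO replicate 3 and Bach2 KO replicate 1 together, whose detrending metric was out of range, gave 4351. For opposite directions from WT, the 233 genes became 233 to 898 with 1 array left out (898 without WT replicate 3) and 532 without that pair; fewer arrays leave fewer that must not overlap. The 7 genes that passed against WT in both knockouts with opposite signs became 2 with the series matrix values, 3 where all 6 arrays had to be well above background, 13 with array weights, 3 without DKO arrays, 2 on slide 1 alone, 2 with slide as a fixed term, 3 at the stricter p, 1 with the slide row term, 2 without that pair and 4 to 16 with 1 array left out. The 14 genes of Bach1 KO against WT became 7, 49, 8, 4, 4, 6, 5 and 3 under the same settings from that stricter filter on, in that order, and 7 to 111 with 1 array left out (100 without Bach1 KO replicate 2, 111 without WT replicate 2). With the replicate block, 8345 genes passed; deviations of same-numbered Bach1 KO and Bach2 KO arrays correlated at 0.02, -0.17 and -0.07, so the numbers did not pair them. Among values of named genes under all settings, 5416 kept their side of the threshold, 136 lost the call and 21 gained it. A further 2 that passed in the main fit changed sign: Csf3r after quantile normalization (0.05, adjusted p = 0.818) and Cd80 as the mean of its probes (0.13, adjusted p = 0.83). Sign changes of genes that passed in neither fit count among the 5416, as for Tnfsf14, which ran from -0.32 to 0.44. Apart from those defined by construction, the causes were not tested. Cd40 lost its call with the slide row term (7.89, adjusted p = 0.0679). Levels of genes dim on every array of a group are bounds only.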
